A study of Mus musculus with 12 samples.

Results

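Fibromodulin (Fmod), lysozyme 1 (Lyz1), Mfsd4, Padi1, Kcnk3 and B430010I23Rik were 6 of the 23337 genes in the count tables of a mouse urothelium study. They were selected on their levels in these libraries: each was lower in Stag2 knockout (KO) than in wild-type (WT) animals 1 month after induction, without a clear loss after 1 week. Their differences between the genotypes at either time, and the change of these differences between the times, are therefore a description, and where a count of members called is given it restates the choice. The difference between the WT groups of both times was tested, with libraries that also took part in the choice. Total RNA of peeled urothelium, an epithelial lining stripped from its underlying tissue, of 12 animals was sequenced from the 3′ ends of transcripts, in 4 groups of 3: Stag2-WT and Stag2-KO taken after 1 week, and Stag2-WT and Stag2-KO taken after 1 month. All animals of both genotypes had eaten TMX (taken to be tamoxifen) in their diet for the first week, and times count from its start. The Cre line, the promoter that drives it, the strain, the age and the sex of the animals are not given in the sources used here.

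Stag2 encodes a subunit of cohesin, the ring-shaped complex that holds sister chromatids together and shapes chromatin loops, and the study's title names it beside DREAM, the repressor of the cell cycle program in quiescent cells. Urothelium is the stratified lining of the urinary tract, with basal cells, intermediate cells and a surface layer of umbrella cells. The 6 genes come from unrelated families. Fibromodulin is a small leucine-rich proteoglycan that binds collagen fibrils in the matrix. Lysozyme 1 is a secreted enzyme that cleaves bacterial cell walls, and its close relative Lyz2 is the lysozyme of macrophages. Mfsd4, now named Mfsd4a, encodes a membrane protein of the major facilitator superfamily of solute carriers. Kcnk3, also known as TASK-1, is a two-pore-domain potassium channel that sets the resting potential of cells. Padi1 encodes a peptidylarginine deiminase, an enzyme that converts arginine in proteins to citrulline and is known from the cornifying epidermis. B430010I23Rik is annotated as an antisense RNA without a protein product.

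The genes lie on 5 chromosomes of GRCm38, the build that mm10 names (GENCODE M21). Fmod is at chr1:134037254-134048277 on the plus strand and Mfsd4 at chr1:132022806-132068062 on the minus strand, 1969191 bases apart with 30 genes of the tables between them. Lyz1 is at chr10:117287797-117292868 (minus), 5475 bases from Lyz2. Padi1 is at chr4:140812983-140845778 (minus), 2334 bases from Padi3, 38746 from Padi4 and 60565 from Padi2. Kcnk3 is at chr5:30588170-30625271 (plus). B430010I23Rik, at chr8:41017468-41024216 (plus), lies inside the span of Mtus1 on the opposite strand. The kit keeps the strand and the labels give a strand-aware counting setting, so overlapping genes on opposite strands were counted apart.

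Because the members were lower together, the 250 bases before the RefSeq start were searched in the 4 members matched in the RefSeq promoter table (Fmod, Lyz1, Mfsd4a and Padi1; GRCm38.p6), on both strands. The letters were TTTGAA, the core of the cell cycle homology region (CHR) that DREAM binds, the E2F forms TTTCCCGC and TTTGGCGC, the TATA box TATAAA and the GC box GGGCGG. The CHR core was in the windows of Lyz1 and Padi1 and in 16.0% of all 32851 promoter windows of the same length. The GC box was in the Mfsd4a window and in 32.7% of all windows. Neither E2F form (0.895% and 0.417% of all windows) nor the TATA box (12.4%) was found in the 4 windows, and Fmod held none of the 5 motifs. Each window held at most 1 match, so none overlapped. A match of these letters is a description of the sequence. Shown are the Padi1 and Lyz1 windows, which hold TTTGAA or its reverse complement (capitals). The Lyz2 window is shown too, since its gene lies beside Lyz1. The windows are at chr4:140845779-140846028 (Padi1), chr10:117292869-117293118 (Lyz1) and chr10:117282273-117282522 (Lyz2), all on the minus strand, written 5′ to 3′:
Padi1: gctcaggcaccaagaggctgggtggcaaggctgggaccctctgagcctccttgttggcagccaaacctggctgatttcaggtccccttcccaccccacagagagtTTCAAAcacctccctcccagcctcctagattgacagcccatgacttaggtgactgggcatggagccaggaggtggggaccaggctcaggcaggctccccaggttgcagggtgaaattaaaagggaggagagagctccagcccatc
Lyz1: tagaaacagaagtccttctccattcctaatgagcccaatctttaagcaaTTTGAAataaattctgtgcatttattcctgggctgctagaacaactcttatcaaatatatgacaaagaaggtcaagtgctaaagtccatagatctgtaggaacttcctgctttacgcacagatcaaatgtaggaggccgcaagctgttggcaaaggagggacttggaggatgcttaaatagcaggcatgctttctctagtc
Lyz2: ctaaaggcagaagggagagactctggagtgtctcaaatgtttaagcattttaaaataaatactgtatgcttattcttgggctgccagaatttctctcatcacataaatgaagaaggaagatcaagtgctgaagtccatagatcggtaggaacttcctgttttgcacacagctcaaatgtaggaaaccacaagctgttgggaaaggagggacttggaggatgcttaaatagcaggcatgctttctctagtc
The Lyz1 and Lyz2 windows were 79.4% identical in a global alignment, with 48 mismatches, and of this pair Lyz1 alone held TTTGAA. The window of Padi2, a relative that was called lower at 1 month, was not searched. Nothing about the changes at 1 month can therefore be read from these windows.

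Libraries held between 5580961 and 9497088 counts, and levels are given as CPM, counts relative to a library total scaled by TMM. A floor of 3 counts corresponded to between 0.305 and 0.632 CPM. Stag2 itself was lower in every KO than in every WT library of the same time, at 59.5 to 72.2 against 106.2 to 151.1 CPM after 1 week and at 19.3 to 39.4 against 45.1 to 64.6 CPM after 1 month. That pattern was shown by 13.4% of all genes tested at 1 week and 6.71% at 1 month. Neither Stag2 difference passed edgeR's test (adjusted p = 0.198 at 1 week and 0.0507 at 1 month). In WT, Stag2 was lower at 1 month than at 1 week (log2 change -1.22, SE 0.24, edgeR adjusted p = 0.0130). Which part of Stag2 was deleted is not given in the sources used here, and 3′ reads outside it would not check the labels. All 20 urothelium markers were measured at both times. KO replicate 3 of 1 week stood apart from the rest: its rank correlation with the other libraries of 1 week was between 0.746 and 0.842 over 13122 genes, whereas the highest value of each other library was at least 0.940. All 1-week libraries are of batch 1, and at 1 month replicates 1 and 2 of both genotypes are of batch 2 and replicate 3 of both is of batch 3, so time and batch cannot be told apart. Xist reads (6392 to 10406 counts) marked the 3 KO libraries of 1 week and KO replicate 3 of 1 month (7764 counts), and the other libraries held Y-linked reads, so at 1 week sex and genotype cannot be told apart. No pair of replicates agreed within sampling noise, and nothing but the labels says that they are separate animals.

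After 1 month every KO library was below every WT library for all 6 genes, a pattern shown by 6.71% of the 12139 genes tested. In the edgeR quasi-likelihood fit all 6 were among the 10 genes with the smallest p of the 148 called lower in KO, which are 1.22% of the genes tested; these values took part in choosing them and are no further evidence. In bulk tissue, fewer cells of a type and less RNA per cell cannot be told apart.

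Of the genes for matrix and secreted proteins, Fmod had 15.4, 19.7 and 12.4 CPM in the WT libraries of 1 month and 0.767, 0.494 and 1.37 CPM in the KO libraries. The WT values rested on 73, 105 and 83 counts and the KO values on 6, 3 and 9 counts. The KO libraries were near the floor and all far below the lowest WT library. The fitted level was 17.5-fold lower in KO (log2 change -4.13, SE 0.44, n = 3 in each group). Counting error alone puts the ratio of WT to KO between 11.0 and 30.3, since only 18 counts remained in KO. Lyz1 had 80.6, 73.4 and 29.1 CPM in WT and 19.1, 16.5 and 8.04 CPM in KO. Its lowest library in each genotype was replicate 3, the pair of batch 3, and the 2 genotypes did not overlap. The log2 change was -2.02 (SE 0.22), a 4.06-fold lower level.

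For the membrane proteins, Mfsd4 was at 194, 175 and 115 CPM in WT and at 49.8, 32.7 and 37.3 CPM in KO after 1 month. The highest KO library was well under the lowest WT library, and the log2 change was -1.97 (SE 0.23), 3.92-fold lower. Kcnk3 was at 73.9, 47.1 and 66.9 CPM in WT and at 13.0, 11.0 and 4.86 CPM in KO, again without overlap. Its log2 change of -2.75 (SE 0.33), 6.73-fold lower, was larger in the pair of batch 3, where KO replicate 3 was the lowest library.

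The enzyme Padi1 had 93.5, 68.9 and 49.2 CPM in WT and 23.2, 21.7 and 13.4 CPM in KO, with replicate 3 lowest in both genotypes. The log2 change was -1.85 (SE 0.22), or 3.60-fold lower. The antisense RNA B430010I23Rik had 6.74, 6.95 and 11.6 CPM in WT, from 32, 37 and 78 counts, and 0.128, 0 and 0.152 CPM in KO, from 1, 0 and 1 counts. All KO libraries were under the floor of 3 counts, whereas each WT library was well above it. The ratio of WT to KO was 89.7, and with 2 counts in KO its 95% exact counting interval ran from 24.4 to 748. Fmod and B430010I23Rik had no KO library of 1 month with 10 counts or more and passed the low-count filter through WT alone.

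The batches at 1 month allow the genotypes to be compared within each. The log2 changes in batch 2 (2 libraries of each genotype) and batch 3 (1 of each) were -4.30 and -2.94 for Fmod, -2.10 and -1.82 for Lyz1 and -2.18 and -1.62 for Mfsd4. They were -1.83 and -1.86 for Padi1, -2.27 and -3.71 for Kcnk3 and -4.41 and -4.79 for B430010I23Rik. All 6 genes were lower in KO in both batches, which follows from the lack of overlap at 1 month and is no further evidence. The pair in batch 3 was a Y-linked WT library and an Xist-positive KO library, and all 4 libraries of batch 2 were Y-linked. The calls that took part in the choice were present for each member under 12 of 13 alternative settings. The exception was the fit without the batch term, in which 0 of 12139 genes were called by edgeR, with 919 at an unadjusted p under 0.05.

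**Figure D1:**
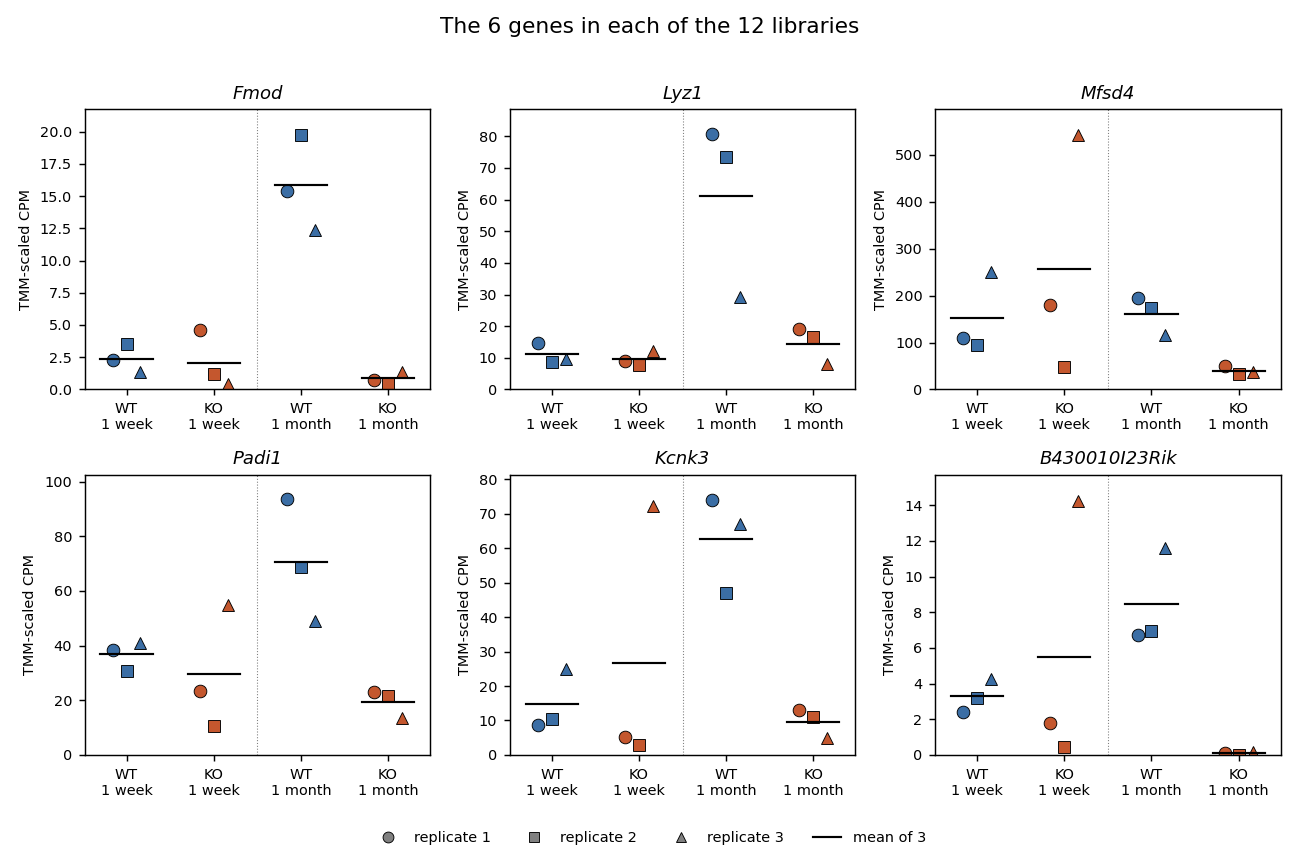
TMM-scaled CPM (y axis) of the 6 genes in each of the 12 libraries by genotype and time (x axis), with 1 point per library, shapes for replicates, blue for WT, orange for KO and a line at the mean of 3. All KO points of 1 month lie below the WT points of 1 month in every panel, and KO replicate 3 of 1 week is the highest 1-week library for Mfsd4, Padi1, Kcnk3 and B430010I23Rik and the lowest for Fmod.

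After 1 week all 6 genes overlapped between the genotypes, whereas 13.4% of the 12754 genes tested had every KO library below every WT library; 0 members were called lower, against 0.047% of all genes (6 genes), and both counts follow from the choice of members. Lyz1 had the narrowest spread among KO libraries. It was at 14.6, 8.82 and 9.75 CPM in WT and at 8.84, 7.86 and 12.1 CPM in KO, and its KO libraries spanned 1.54-fold. The log2 change was -0.19 (SE 0.38). Fmod had 2.26, 3.55 and 1.32 CPM in WT (19, 31 and 13 counts) and 4.61, 1.18 and 0.396 CPM in KO (36, 11 and 2 counts). The KO libraries lay on both sides of the WT libraries and spanned 11.7-fold, and the change was -0.14 (SE 0.84).

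For the other 4 genes KO replicate 3 was the highest library of 1 week. Mfsd4 had 110.2, 94.1 and 249.97 CPM in WT and 180.4, 48.7 and 543 CPM in KO. Padi1 had 38.5, 30.8 and 40.9 CPM in WT and 23.4, 10.6 and 54.8 CPM in KO. In both genes KO replicate 2 was the lowest of the 6 libraries, and KO replicate 1 lay among the WT libraries for Mfsd4 and below them for Padi1. Kcnk3 had 8.56, 10.5 and 25.0 CPM in WT and 5.25, 2.80 and 72.4 CPM in KO, a 25.9-fold span among KO libraries. B430010I23Rik had 2.38, 3.21 and 4.26 CPM in WT and 1.79, 0.431 and 14.2 CPM in KO, a 33.1-fold span. For Padi1, Kcnk3 and B430010I23Rik, KO replicates 1 and 2 were both below all 3 WT libraries, and KO replicate 3 was above all of them. The share of all genes with this pattern was not computed.

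Without KO replicate 3 the 1-week log2 changes moved from -0.29 to -1.14 (SE 0.35) for Padi1, from 0.87 to -1.90 (SE 0.56) for Kcnk3 and from 0.72 to -1.61 (SE 0.66) for B430010I23Rik. Mfsd4 went from 0.79 to -0.43 (SE 0.60), Fmod from -0.14 to 0.25 (SE 0.68) and Lyz1 from -0.19 to -0.43 (SE 0.33). No member was called in this fit of 5 libraries, against 0.766% of 13059 genes called lower. The size of the 1-week change thus depended on that library for Mfsd4, Padi1, Kcnk3 and B430010I23Rik. The signs of the Kcnk3, B430010I23Rik, Mfsd4 and Fmod changes turned without it. For Fmod the 1-week change depended more on another library: without KO replicate 1, the highest of the 6, it was -1.49 against -0.14 with all libraries. KO replicates 2 and 3 held only 11 and 2 counts of Fmod, and it was called at 1 week in 0 of 10 alternative settings. The 1-week change of Lyz1 stayed between -0.43 and 0.055 whichever library was left out. The SE of the 1-week change with all libraries ran from 0.38 for Lyz1 to 1.13 for Kcnk3.

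No marker of another cell type was called at 1 week, and the medians of these lists in KO lay above that of all genes. All 14 fibroblast markers had a change above zero in KO, with a median of 1.32 against 0.02 over all genes, and their summed level was 5749 to 10683 CPM in KO and 3641 to 5844 CPM in WT, which overlap. All 10 endothelial markers were above zero too (median 0.74), and their sum of 474 to 613 CPM in KO did not overlap the 256 to 327 CPM of WT. The sum of 12 smooth muscle and pericyte markers, 754 to 1225 CPM in KO and 370 to 498 CPM in WT, did not overlap either (median change 0.63). Macrophage markers had a median change of 0.83, and their sum of 382 to 697 CPM in KO did not overlap the 219 to 351 CPM of WT. Other small leucine-rich proteoglycans, the family of Fmod, had a median change of 0.84 at 1 week, with 8 of 10 above zero. The 20 urothelium markers had a median of -0.12 at 1 week, and their sums overlapped. The part of these shifts in the members' 1-week levels was not tested.

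**Figure D2:**
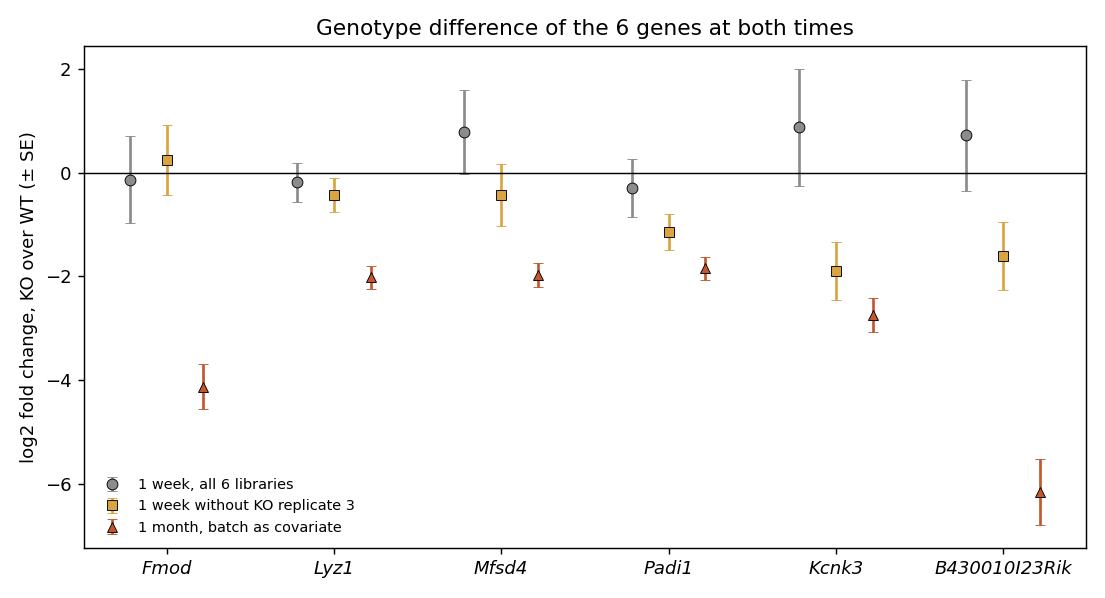
Log2 fold change of KO over WT (y axis) for each of the 6 genes (x axis), at 1 week (circles), at 1 week without KO replicate 3 (squares) and at 1 month (triangles), with bars of 1 SE. The 1-month values run from -6.16 to -1.85, and leaving out 1 library shifts Padi1, Kcnk3 and B430010I23Rik at 1 week to between -1.90 and -1.14.

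Levels of WT were compared between the tables of the 2 times. All WT libraries of 1 month were above all WT libraries of 1 week for 5 of the 6 genes, Mfsd4 being the exception, and 22.5% of the 12490 genes tested showed this pattern. By edgeR's quasi-likelihood test with Benjamini-Hochberg adjustment, 3 of 6 were called higher at 1 month, against 10.2% of all genes. Fmod rose from 1.32 to 3.55 CPM across the WT libraries of 1 week to 12.4 to 19.7 CPM at 1 month (log2 change 2.64, SE 0.41, edgeR adjusted p = 0.00934). Lyz1 rose by 2.34 on the log2 scale (SE 0.39, edgeR adjusted p = 0.00992), from at most 14.6 CPM to at least 29.1 CPM. Kcnk3 rose by 1.99 (SE 0.44, edgeR adjusted p = 0.0185), from at most 25.0 CPM to at least 47.1 CPM. The same WT libraries took part in choosing the members, and the test compares tables that differ in time and batch at once, so it is no independent support.

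For the other 3 genes the WT difference did not pass. Padi1 was 0.83 higher on the log2 scale at 1 month (SE 0.26, edgeR adjusted p = 0.0547) and B430010I23Rik 1.28 higher (SE 0.42, edgeR adjusted p = 0.0586). Both genes passed with DESeq2's test (adjusted p of 0.0191 and 0.0212), and both had no overlap between the times. Mfsd4 had a change of -0.03 (SE 0.39, edgeR adjusted p = 0.961), and its sign turned with DESeq2's size factors. Without WT replicate 1 or replicate 2 of 1 week the Kcnk3 call was lost (edgeR adjusted p = 0.0724 for both), and without WT replicate 3 of 1 week that of Lyz1 was lost (edgeR adjusted p = 0.0527). Without WT replicate 3 of 1 month Padi1 and B430010I23Rik were called (edgeR adjusted p of 0.000955 and 0.0373). That fit called 6786 genes, against 2760 with all libraries, so nothing particular to these 2 genes can be read from it. The DESeq2 calls of both genes were not set against the share over all genes.

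The KO libraries of 1 month can also be set against WT of 1 week rather than of 1 month. For Mfsd4, Padi1 and B430010I23Rik all KO libraries of 1 month were below all WT libraries of 1 week. For Fmod, Lyz1 and Kcnk3 they overlapped: Lyz1 in KO at 1 month, 8.04 to 19.1 CPM, spanned the 8.82 to 14.6 CPM of WT at 1 week. B430010I23Rik alone was lower in every KO library of 1 month than in every KO library of 1 week. These are levels across batches and carry no test of genotype. The share of all genes with each pattern was not computed, so no trait particular to the members can be read from them.

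The genotype change at 1 month minus that at 1 week (the interaction) was negative for all 6 genes in a fit of all 12 libraries. It was -4.00 (SE 1.03) for Fmod, -1.82 (SE 0.41) for Lyz1 and -2.75 (SE 0.94) for Mfsd4 on the log2 scale. It was -1.54 (SE 0.64) for Padi1, -3.63 (SE 1.36) for Kcnk3 and -6.89 (SE 1.60) for B430010I23Rik. No member was called, and 0 of the 13122 genes were called by edgeR (0%), with 2611 at an unadjusted p under 0.05 and 856 called by DESeq2. Without KO replicate 3 of 1 week the differences for Mfsd4, Kcnk3 and Padi1 shrank to -1.57 (SE 0.68), -0.89 (SE 0.67) and -0.74 (SE 0.40). Those of Fmod, Lyz1 and B430010I23Rik were then -4.42 (SE 0.82), -1.63 (SE 0.35) and -4.62 (SE 0.99). In that fit these 3 members and 1.67% of 13408 genes were called lower, from which nothing can be read, since a loss at 1 month without one at 1 week is how the members were chosen. Without KO replicate 1 of 1 week the difference for Fmod was -2.69.

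The members followed one another to different degrees. Across the 12 libraries, Pearson's r of log2 CPM was 0.90 between Padi1 and Kcnk3 and 0.88 between Mfsd4 and B430010I23Rik, and the lowest was 0.23 between Lyz1 and Mfsd4. Within the 6 libraries of 1 week r was 0.97 between Kcnk3 and B430010I23Rik and 0.93 between Padi1 and B430010I23Rik. Fmod had negative values with all the others there, from -0.62 to -0.26. These libraries share groups, batch and 1 library far from the rest, so the values describe them only.

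Among genes with a mean of at least 1 CPM, the profile most like Lyz1 over 12 libraries was that of Cd74 (r = 0.96), the invariant chain of MHC class II in antigen-presenting cells, followed by Kidins220 (0.94) and Myeov2 (0.93). For Fmod these were Cr2 (0.89), a complement receptor, Gm14403 (0.88) and Dio3os (0.85). Cr2 and Dio3os were low, with group means of 0.570 to 3.39 CPM and 0.765 to 4.50 CPM. For Mfsd4 the nearest were Fer1l4 (0.94), Glrx2 (0.93) and Tesk2 (0.92). Padi1 was nearest to Zdhhc9, Cpm and Clec7a (0.93 each). Kcnk3 was nearest to Epb4.1l4b (0.92), Ankrd6 (0.90) and Smtn (0.90). B430010I23Rik was nearest to Cwh43 (0.91), Rhbdl2 (0.90) and Cpm (0.88). Each of these genes was picked from 13105 by its r, so the values describe these libraries only. With a prior count of 0.5 in place of 2, Cr2 came second to Gm14403 for Fmod, and Dio3os (rank 6), Tesk2 for Mfsd4 (rank 4) and Cpm for B430010I23Rik (rank 5, r = 0.84) left the first 3.

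No tested relative of Fmod was called at 1 month. Of 16 other small leucine-rich proteoglycan genes 10 were tested and 0 were called, with a median log2 change of -0.03 against -0.01 over all genes. Prelp, the nearest of the tables' genes on one side of Fmod (115839 bases away), had a change of 0.05, Dcn (decorin) of -0.10, Lum (lumican) of 0.42 and Bgn (biglycan) of -0.88. In WT 5 of these 10 genes were called higher at 1 month than at 1 week, with a median of 1.00, so Fmod was not the one family gene that rose between the WT tables. Of 14 fibroblast markers 7 were higher in WT at 1 month too, with a median of 1.08. Between the genotypes at 1 month, 1 of the 14 fibroblast markers was higher in KO (Col6a3, log2 change 1.09, edgeR adjusted p = 0.0379), none was lower, and the median was -0.10. In the TGF-beta pathway, whose ligands fibromodulin can bind, 20 of 22 genes were tested at 1 month and 1 was called, Ltbp4, a latent TGF-beta binding protein, which was higher in KO (0.99, SE 0.24, edgeR adjusted p = 0.0476). The median of the pathway was 0.29.

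Lyz1 was compared with Lyz2, the one other lysozyme gene that passed the filter. At 1 month Lyz2 had 0.842, 3.57 and 18.9 CPM in WT and 1.41, 4.28 and 7.28 CPM in KO. The genotypes overlapped throughout, WT replicate 3 was high where that of Lyz1 was low, and the log2 change was -0.40 (SE 0.59, edgeR adjusted p = 0.720). At 1 week Lyz2 had 5.47, 3.78 and 0.812 CPM in WT and 1.28, 6.57 and 3.36 CPM in KO, also overlapping. Their transcripts are 92.0% identical, and 93.8% over the last 300 bases. Of the 50-base stretches of the Lyz2 transcript 15.4% also occur in Lyz1, and over the last 300 bases 21.9% do. How the counting split reads between them is therefore uncertain.

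**Figure D3:**
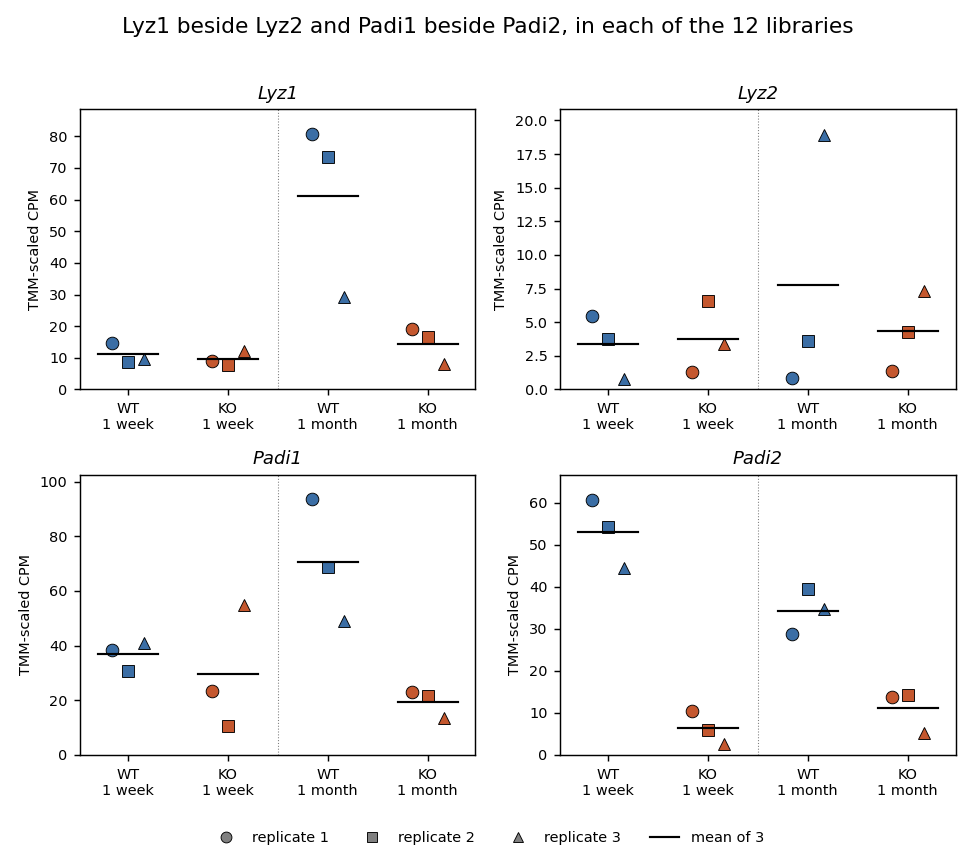
TMM-scaled CPM (y axis) of Lyz1 beside Lyz2 and of Padi1 beside Padi2 by genotype and time (x axis), with 1 point per library, shapes for replicates, blue for WT, orange for KO and a line at the mean of 3. Lyz2 overlaps between the genotypes at both times, and Padi2 is lower in all KO libraries than in all WT libraries at both times.

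Macrophage markers were mostly lower in KO at 1 month and mostly higher at 1 week. Lyz1 was chosen on its own changes at both times, so setting the markers beside it is a description. At 1 week their median log2 change was 0.83, with 2 of 14 below zero. The Lyz1 change was -0.19 (SE 0.38) with overlapping genotypes, which gives no clear direction. At 1 month 4 of 14 tested, Lyz2 among the 14, were called lower in KO by edgeR: Cd74 (log2 change -1.76, adjusted p = 0.00344), the complement genes C1qa (-1.95, adjusted p = 0.0121) and C1qb (-1.38, adjusted p = 0.0302), and Csf1r, the receptor for colony-stimulating factor (-1.13, adjusted p = 0.0429). A change below zero was seen in 13 of the 14, and the median was -1.09. Cd74 had 538, 640 and 286 CPM in WT and 126, 190 and 101 CPM in KO at 1 month, and 116, 67.0 and 116 CPM in WT and 97.3, 62.8 and 142 CPM in KO at 1 week. Like Lyz1, it was highest in the 3 WT libraries of 1 month and lowest of these in replicate 3. The summed level of the list was 795 to 1612 CPM in WT and 406 to 502 CPM in KO at 1 month, and 219 to 351 CPM in WT and 382 to 697 CPM in KO at 1 week. No marker was at 0 in all libraries, and the list's part in the level of Lyz1 was not tested. Among 17 genes for antimicrobial secretions 7 were tested at 1 month: Defb1, a beta-defensin, was lower in KO (-2.50, SE 0.33, edgeR adjusted p = 0.00344), and Pigr, the receptor that carries immunoglobulin A across epithelia, was higher (1.36, SE 0.27, edgeR adjusted p = 0.0278). The median of these 7 was -0.38.

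Padi2 was the one tested relative of a member that was called lower at 1 month. Padi2 had 28.8, 39.4 and 34.7 CPM in WT and 13.8, 14.3 and 5.16 CPM in KO at 1 month, without overlap (log2 change -1.72, SE 0.32, edgeR adjusted p = 0.0218). At 1 week it had 60.6, 54.2 and 44.6 CPM in WT and 10.5, 5.92 and 2.57 CPM in KO, again without overlap. The 1-week change of -3.02 (SE 0.51) did not pass (edgeR adjusted p = 0.0927). In contrast to Padi1, KO replicate 3 of 1 week was the lowest library for Padi2. The other tested deiminases, Padi3 and Padi4, had changes of 0.08 and 0.37 at 1 month and were not called.

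The families of the membrane proteins showed no called gene at 1 month. Of 15 other Mfsd genes 11 were tested, with a median log2 change of 0.27. Of 13 other two-pore-domain channel genes 4 were tested: Kcnk1 (-0.12), Kcnk2 (0.77), Kcnk5 (-0.30) and Kcnk6 (0.08), with a median of -0.02. Mtus1, which B430010I23Rik lies within on the opposite strand, had a change of 0.29 (SE 0.19, edgeR adjusted p = 0.398), so the antisense RNA was near 0 in KO while its host was not called. Of the other nearest genes that were tested at 1 month none was called. These were Btg2 (0.39) beside Fmod, Cpsf6 (-0.21) beside Lyz1, Cdk18 (-0.42) beside Mfsd4 and 4930471M23Rik (-0.59) beside Kcnk3. Elk4, which overlaps Mfsd4 on the opposite strand, was too low to be tested. So were Gm13032 and 4930515B02Rik beside Padi1, Gm9899 beside Kcnk3 and Fgl1 beside B430010I23Rik.

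**Figure D4:**
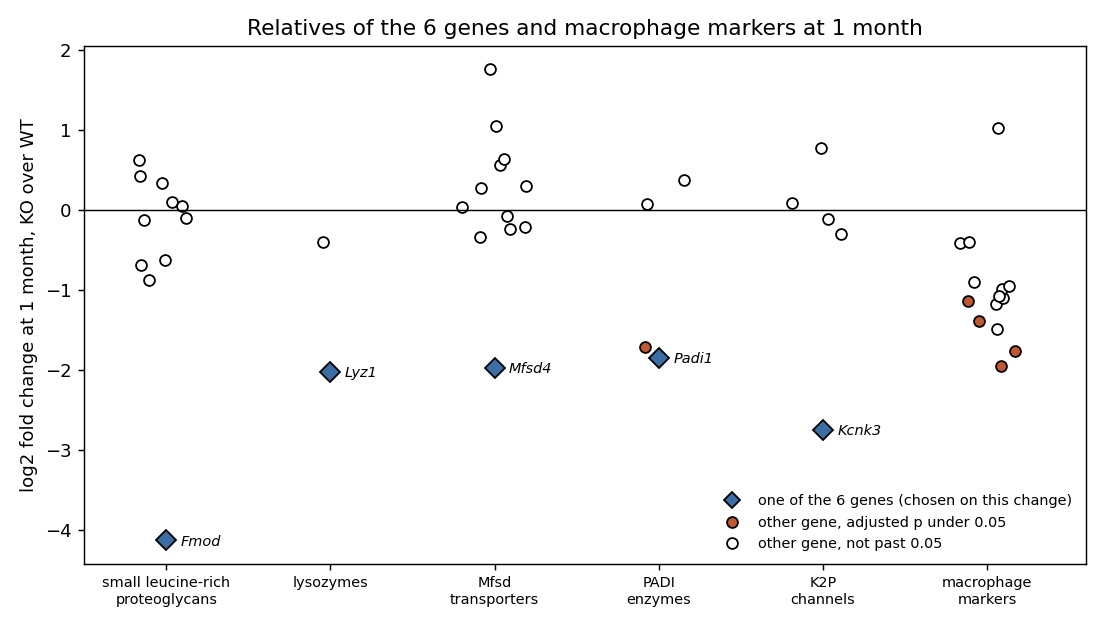
Log2 fold change of KO over WT at 1 month (y axis) for the tested relatives of 5 members by family and for macrophage markers (x axis), with members as diamonds, other called genes as filled circles and genes that were not called as open circles. The members lie between -4.13 and -1.85, Padi2 at -1.72 is the one called relative, and 4 macrophage markers are called.

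At 1 month 1 of 20 urothelium markers was lower in KO, Krt20, a keratin of umbrella cells (-1.76, edgeR adjusted p = 0.00601), and 14 of 20 had a change below zero, with a median of -0.38. Their summed level was 20377 to 37482 CPM in WT and 15431 to 21132 CPM in KO at 1 month, which overlap. Of 12 smooth muscle and pericyte markers Pdgfrb was higher (1.30, edgeR adjusted p = 0.0218) and Smtn lower (-0.99, edgeR adjusted p = 0.0272), with a median of -0.36. The part of these cell types in the members' levels was not tested.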

How the data were processed

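RNA of peeled urothelium was sequenced in 12 libraries, and the authors deposited raw counts per gene in a table for each time. Per the labels' protocols, libraries were made with an oligo-dT primed kit that reads 3′ ends and keeps the sense strand, and counting used HTSeq's strand-aware setting. The submitters' processing notes name Bowtie, TopHat, HTSeq and DESeq2 and the build mm10, without roles. The annotation used for counting is not given in the sources used here. The members and the gene lists were chosen with earlier results of these data known.

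Counts were tested as deposited with edgeR's two-sided quasi-likelihood test (edgeR 4.0.16 under R 4.3.3, TMM scaling, robust dispersions, default low-count filter). P-values were adjusted by Benjamini-Hochberg across every gene in a fit, and those under 0.05 were called. Separate fits compared the genotypes at 1 month (batch as covariate) and at 1 week, and the WT groups of both times. A fit of all 12 libraries with batch gave the interaction. The SE of a log2 change is its size over the root of the F statistic. Log2 CPM for correlations used a prior count of 2. Ratios of summed counts carry exact 95% intervals, which cover counting error only, as do floors of 3 counts, since no molecular identifiers are stated. Depth was 5580961 to 9497088 counts per library. The edgeR fits were also run on simulated counts with known changes. These counts held no batch effect and no outlying library, so the dependence of the calls on either was not simulated.

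Replicates were numbered in accession order. The title and the library name of WT replicate 3 at 1 month carry different animal numbers, and its column was matched by library name. Besides members and Stag2, genes were named by rule: family members, up to 3 called genes per list at 1 month with the smallest adjusted p (C1qa, C1qb and Csf1r are given with Cd74 as all called macrophage markers, a choice made after their values were seen), the 3 genes most like each member, and the nearest gene on each side. The lists were 5 protein families, the TGF-beta pathway, antimicrobial secretions, cornified epithelium and markers of 6 cell types. Positions came from GENCODE M21, matched by symbol for 20940 genes and by RefSeq synonym for 1903, with 494 unmatched. Promoter windows came from RefSeq (GRCm38.p6). Alternatives were other scalings, filters, DESeq2 (version 1.42.0), no batch term, batch 2 alone and leaving out each library.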

Additional observations from a re-analysis of the deposited data

How the results depend on the processing

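At 1 month 269 genes were called; the count was 561 with library-size scaling, 1276 without a filter, 727 with DESeq2, 0 without the batch term and 1474 in batch 2 alone. With library-size scaling 81.3% of called genes were higher in KO, against 45.0%, and the median of all genes moved by 0.22. At 1 week 8 were called, 62 without a filter and 891 with DESeq2; with library-size scaling 37.5% of the calls were higher, against 25.0%. The interaction gave 0 calls, 137 without a filter and 856 with DESeq2. Leaving out each library gave 45 (without WT replicate 2) to 1522 (without WT replicate 3) calls at 1 month, 0 to 320 (without KO replicate 3) at 1 week, and 0 to 440 (without KO replicate 2 of 1 week) in the interaction. Between the WT groups, with 2760 calls, it gave 345 (without replicate 1 of 1 week) to 6786 (without replicate 3 of 1 month). The causes were not tested.

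The WT change of Mfsd4, -0.03, turned to 0.10 with DESeq2's size factors, 0.14 with a mean of at least 20 counts and 0.082 with DESeq2. Leaving out libraries it ran from -0.30 (without WT replicate 2 of 1 week) to 0.57 (without WT replicate 3 of 1 week), and it was 0.04 without WT replicate 2 of 1 month and 0.29 without WT replicate 3 of 1 month. No paired analysis was possible because the labels give no number that animals of different groups share. Depth limited Fmod and B430010I23Rik most, with 18 and 2 counts over the KO libraries of 1 month.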

Other observations

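Cell types and tissues outside the comparisons above gave few calls at 1 month. Of 24 cornified epithelium genes, a program in which Padi1 acts in skin, 4 were tested and 0 called, with a median log2 change of -0.05 in KO. None of 10 tested endothelial markers was called (median 0.43), and of 10 lymphocyte markers 3 were tested and none was called.

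Defb1, the beta-defensin that was lower in KO at 1 month, had no overlap between the genotypes at 1 week either. Its 1-week libraries were at 15.2, 17.6 and 12.7 CPM in WT and at 3.46, 3.88 and 6.13 CPM in KO, and the change of -1.74 (SE 0.39) did not pass edgeR's test (adjusted p = 0.122). In WT, Defb1 was higher at 1 month than at 1 week by 1.43 on the log2 scale (SE 0.43, edgeR adjusted p = 0.0480).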
